A study of Rattus norvegicus with 60 samples.

Results

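The collagens measured here were the 41 genes, of 14217 genes on the array, whose platform symbol has the form of a collagen alpha chain (Col, a number, a, a number). Each was represented by the probe set with the highest mean over all arrays, out of 58 collagen probe sets, and 14 of the genes had more than 1. By type they were 11 fibrillar chains, 5 chains of basement membrane type IV, 2 multiplexins, 5 chains of type VI, 9 fibril-associated chains, 3 short-chain network formers, 4 transmembrane collagens and 2 others. None was chosen by a measured value. The text follows the 16 members that were called in a treatment comparison or had the highest vehicle levels of a fraction, and gives the rest by counts and ranges.

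Collagens are secreted or membrane-bound proteins whose chains wind into triple helices. Fibrillar collagens (types I, III, V and XI among them) form the load-bearing fibres of scar and vessel wall, and type IV collagens form the sheet-like network of basement membranes. In the liver, stellate cells that line the sinusoids are known as the main source of fibrillar collagen after injury, sinusoidal endothelium contributes type IV, and hepatocytes make type XVIII, whose cleaved end is endostatin.

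The series measured hepatocytes (HC) and a mesenchymal cell fraction (MC) from livers of 8-week-old Wistar rats on 60 Affymetrix rat expression arrays, 30 for each fraction. Rats labelled female received cyproterone acetate (CPA, a steroidal antiandrogen and progestin) at 100 mg/kg, once for 24 h or daily for 6 days, and their controls received corn oil (CO, 10 ml/kg). Rats labelled male, with some labelled female at 24 h, received phenobarbital (PB, a barbiturate that induces drug-metabolising enzymes) at 50 mg/kg for 24 h or for 14 days, and their controls received water (H2O). Each fraction held 5 CO arrays at 24 h, 4 arrays of a further CO group at 24 h coded CO_Co, and 3 arrays of every other group. What sets CO_Co apart is not stated. The treatment protocol names rats given oil as the controls, whereas the sample labels name water for PB. The sample labels were followed. No label says that the replicates of a group are separate animals, so p-values measure the spread between arrays.

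Levels are log2 RMA values, and a difference is treated minus vehicle or MC minus HC on that scale. Calls rest on limma with Benjamini-Hochberg adjustment over 14217 genes, and an adjusted p under 0.05 makes a call. The median level of an array lay between 3.25 and 3.39 (HC) or 3.39 and 3.44 (MC), and no detection call came with the values, so whether a low level lies above background was not tested. Arrays 1 and 2 of MC CPA at 6 days, and of MC H2O at 24 h, differed by less than any other pair of arrays of a group (SD of the difference 0.0979 and 0.114 over the brighter probe sets), and each pair was averaged and counted as 1 sample. Fits with the replicate number as a block, given further on, kept the arrays of these pairs apart. HC arrays 1 of CO and of CO_Co at 24 h were nearly as close (0.126), bear different group labels and were both kept. The third array of both 14-day groups stood apart from the other arrays of its group in both fractions, so counts at 14 days are also given without them. The 4 PB and H2O arrays at 24 h labelled female lay at 6.87 or higher on a mean of 2 Y-linked genes, above the lowest of the 20 arrays labelled male (5.77), so the labels of sex go against the data there and no term for sex was fitted. Sex, vehicle and compound cannot be told apart between PB and CPA animals.

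The label of the MC fraction was set against marker lists. In vehicle groups of MC the mean level of 11 Kupffer cell and macrophage markers ran from 9.93 to 10.76, that of 12 sinusoidal endothelial markers from 9.09 to 9.78, that of 13 stellate cell markers from 4.97 to 5.38 and that of 15 hepatocyte markers from 8.35 to 10.09. The corresponding HC means spanned 3.95 to 5.13, 3.41 to 4.18, 3.35 to 3.78 and 11.56 to 11.72. Among the stellate markers, Reln (7.97 in MC, 4.14 in HC), Colec11 (7.89, 4.81) and Vipr1 (8.03, 4.28) were bright in MC, whereas Des (3.14, 3.31), Pdgfrb (2.83, 3.07) and Gfap (2.50, 2.39) were dim in both fractions. In MC the mean of 10 T and NK cell markers spanned 5.89 to 6.65 (2.65 to 2.91 in HC), that of 5 B cell markers 5.02 to 5.56 (3.35 to 3.52) and that of 5 erythroid markers 5.29 to 6.85 (3.32 to 3.73). The MC fraction thus held RNA of several cell types, hepatocytes included. In such mixed samples, fewer cells of a type and less RNA per cell cannot be told apart.

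RefSeq promoter windows of the rat build GRCr8 were found for 32 of the 41 collagens. Col4a1 and Col4a2, the pair of chains that forms the common basement membrane network, start back to back on opposite strands, 77 bases apart. Their levels moved together between MC arrays as given further on, and a part of the shared start region in this was not tested. The whole stretch between their starts (chr16:84885521-84885596, read on the plus strand) is shown first. The sequences upstream of Col4a5 (chrX:109907109-109907250, plus strand) and Col18a1 (chr20:11473395-11473644, plus strand), the collagens with the largest changes in hepatocytes, and of Col5a2 (chr9:55090152-55090401, minus strand, printed 5′ to 3′ towards the gene), the collagen with the largest difference in treated MC, follow. Capitals mark matches to the GC box motif GGGCGG on either strand (CCGCCC on the other).
Col4a1 and Col4a2: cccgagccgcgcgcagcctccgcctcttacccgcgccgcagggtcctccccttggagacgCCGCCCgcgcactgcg
Col4a5: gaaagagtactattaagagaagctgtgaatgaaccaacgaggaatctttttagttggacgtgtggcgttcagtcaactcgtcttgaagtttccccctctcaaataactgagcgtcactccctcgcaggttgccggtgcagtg
Col18a1: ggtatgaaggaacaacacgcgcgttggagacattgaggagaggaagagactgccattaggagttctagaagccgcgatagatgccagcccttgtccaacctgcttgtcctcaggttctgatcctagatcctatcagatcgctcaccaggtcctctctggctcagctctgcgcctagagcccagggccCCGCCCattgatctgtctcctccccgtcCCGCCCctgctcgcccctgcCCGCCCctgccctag
Col5a2: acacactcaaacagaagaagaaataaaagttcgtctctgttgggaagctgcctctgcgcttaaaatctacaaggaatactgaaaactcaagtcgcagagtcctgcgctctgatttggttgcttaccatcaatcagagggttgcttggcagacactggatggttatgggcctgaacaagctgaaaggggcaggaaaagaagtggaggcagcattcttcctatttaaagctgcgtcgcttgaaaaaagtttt
The Col18a1 stretch held 3 matches to GGGCGG and the stretch shared by Col4a1 and Col4a2 held 1, and neither Col4a5 nor Col5a2 held any in the bases printed. In the whole 250 bases upstream of a start, on either strand, GGGCGG occurred in 18 of the 32 collagens (56.2%) and in 30.5% of all 33469 windows. CCAAT occurred in 9 of 32 (28.1%) against 34.0% of all windows, and TATAAA in 4 of 32 (12.5%) against 12.9%. The Col4a5 stretch was printed only up to the gene record, and its 250 bases hold 1 match to GGGCGG beyond the printed part. A match is a description of the letters only.

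In vehicle animals the collagens did not sort with 1 fraction. At an adjusted p under 0.05, 32 of the 41 differed between the fractions, 14 higher in MC and 18 lower, beside 83.4% of all genes called (34.5% higher, 48.9% lower), so the share called was no larger than among all genes. Most members were dim: 27 had a vehicle mean under 4 in both fractions, where the median of all genes was 4.53 in HC and 4.90 in MC. With genes of a mean under 4 over all arrays left out, 10 collagens were called. Of these 10, Col18a1 and Col4a5 were lower in MC and the others higher. However, 5 had an HC mean under 4 and passed that filter through MC alone, and Col4a5 (MC mean 3.63) passed through HC alone. The filter thus bears on their direction. With a term for labelled sex 17 were called. That term could be estimated only within the PB and H2O groups at 24 h, where the labels of sex go against the data. The count of 17 therefore does not measure an effect of sex. The arrays of the fractions did not overlap for 7 collagens that were higher in MC (13.6% of all genes) and for 1 that was lower (8.38%). The vehicle means below rest on 18 HC arrays and 17 MC samples, and the contrast weights the 5 vehicle groups equally.

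Among the fibrillar chains, Col3a1, the chain of type III collagen of reticular fibres, had vehicle levels in MC from 7.05 to 10.75 (median 8.84) and in HC from 3.07 to 6.26 (median 4.70). Every MC sample was higher than every HC array, and the spread within each fraction was wide (SD 0.977 in MC, 1.05 in HC). The difference was 3.81 (SE 0.304, adjusted p = 1.827e-15). Col5a2, a chain of type V collagen that starts and limits fibril growth, ran from 5.83 to 8.56 (median 7.45) in MC and from 2.16 to 3.61 (median 2.65) in HC. Its ranges did not overlap, and the difference was 4.58 (SE 0.168, adjusted p = 6.252e-28). Col1a2, a chain of type I collagen, ran from 3.38 to 7.07 (median 5.24) in MC and from 1.39 to 3.13 (median 2.34) in HC, again without overlap, a difference of 2.71 (SE 0.221, adjusted p = 4.18e-15). Col1a1, the partner chain of type I, which is not among the 16 and was added after its values were seen, was dim in both, at 2.84 ± 0.303 (SD) in MC and 2.99 ± 0.173 in HC, with a difference of -0.11 (95% interval -0.259 to 0.033, adjusted p = 0.1415). The probe sets of the type I chains thus gave unlike pictures, and the other probe sets of both genes did so as well, at 2.15 for Col1a2 and 0.05 for Col1a1. Col5a1, the partner of Col5a2, differed little (5.08 ± 0.455 in MC, 4.77 ± 0.207 in HC; difference 0.27, adjusted p = 0.02667). Col11a2, a chain of cartilage type XI, was the 1 fibrillar member among the 6 highest of HC that was lower in MC, at 3.71 ± 0.152 against 4.20 ± 0.184 (difference -0.46, adjusted p = 3.801e-09). Over the 11 fibrillar chains, 5 were higher in MC and 5 lower, with a median difference of -0.11 beside -0.14 for all genes. Many of these chains were dim, with a vehicle mean under 4 for 8 of the 11 in HC and for 7 in MC. All that were lower in MC were under 4 there, and all of these but Col11a2 were under 4 in HC.

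Among the 5 type IV chains, 3 were higher in MC and 2 lower. Col4a1 ran from 6.73 to 9.20 (median 7.52) in MC and from 3.30 to 4.48 (median 3.75) in HC, and Col4a2 from 5.22 to 7.30 (median 6.11) in MC and from 3.72 to 4.67 (median 3.97) in HC. Neither overlapped between the fractions. Their differences were 3.84 (SE 0.167, adjusted p = 4.711e-25) and 2.09 (SE 0.141, adjusted p = 6.471e-18). Col4a5, a chain of the basement membrane network of the kidney filter that is mutated in Alport syndrome, went the other way, at 4.66 to 6.31 (median 5.35) in HC and 2.78 to 4.82 (median 3.53) in MC. Its ranges met, with a difference of -1.80 (SE 0.141, adjusted p = 9.852e-16). Col4a6, its neighbour on the X chromosome, was dim in both, at 3.02 ± 0.193 in HC and 2.78 ± 0.167 in MC.

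Col18a1, the chain of type XVIII collagen that carries endostatin, was the hepatocyte collagen of the set. Its level ran from 6.94 to 8.47 (median 7.83) in HC and from 3.48 to 4.93 (median 3.86) in MC, without overlap, a difference of -3.79 (SE 0.0931, adjusted p = 1.588e-34). A further probe set of Col18a1 gave -3.48. Within HC vehicle arrays it lay between 8.19 and 8.47 on the 6 water arrays and between 6.94 and 7.94 on the 12 corn oil arrays, so water and corn oil animals did not overlap. Col4a5 lay between 5.38 and 6.31 on the water arrays and between 4.66 and 5.69 on the corn oil arrays, which overlapped. Col15a1, the other multiplexin, was at 3.75 ± 0.216 in HC and 3.55 ± 0.208 in MC.

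The transmembrane collagen Col13a1 had the widest difference of all 41. It ran from 7.40 to 9.36 (median 8.70) in MC and from 2.05 to 3.57 (median 2.72) in HC, a difference of 5.85 (SE 0.138, adjusted p = 3.489e-35). Col14a1, a fibril-associated chain of interstitial matrix, ran from 5.12 to 8.54 (median 6.73) in MC and from 3.04 to 4.85 (median 3.75) in HC (difference 2.72, SE 0.249, adjusted p = 1.456e-13), also without overlap. Its further probe set gave a smaller difference, 1.21. Of type VI, whose chains form beaded microfilaments, Col6a3 was at 4.76 ± 0.751 in MC and 3.22 ± 0.341 in HC (difference 1.45, adjusted p = 4.862e-10), and Col6a1 at 4.62 ± 0.655 and 3.84 ± 0.267 (difference 0.73, adjusted p = 3.732e-05). Both had MC arrays within the HC range. A dim second probe set of Col6a3 went the other way, at -0.20. Col22a1, a fibril-associated chain of tissue junctions, was at 4.14 ± 0.314 in MC and 3.77 ± 0.212 in HC, a difference of 0.36 (adjusted p = 2.37e-04).

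**Figure D1:**
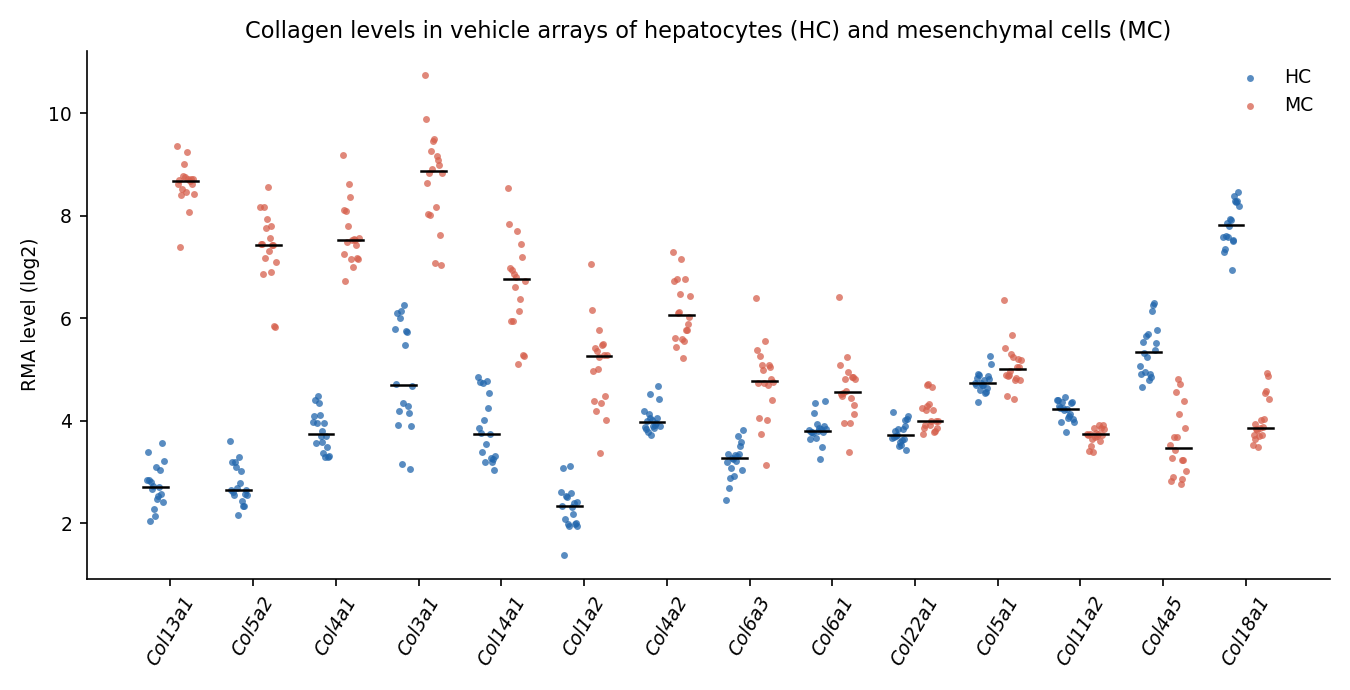
RMA level (log2) of 14 collagens on each vehicle array of HC (blue) and MC (red), with a line at the median of each fraction. Col13a1, Col5a2 and Col4a1 lie wholly higher in MC, Col18a1 lies wholly higher in HC, and Col4a5 is higher in HC with some overlap.

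After 24 h of cyproterone acetate 7 collagen transcripts were lower in hepatocytes, Col4a5 by the most. In that comparison 7 of the 41 were called lower and 0 higher, beside 34.2% of all genes called (11.7% lower, 22.5% higher). The median difference of the 41 was -0.18, against -0.01 for all genes, and 5 of the 41 lay above 0. For 8 collagens every CPA array was lower than every CO array, as for 13.5% of all genes, and for 0 was every one higher (23.5% of genes). Of the fibrillar chains 1 of 11 was called lower (median -0.26, none above 0), of type IV 2 of 5 (median -0.08), of the multiplexins both, and of the fibril-associated and transmembrane chains 1 each. No chain of type VI, no short-chain collagen and neither of the others was called.

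Col4a5 was at 5.07, 4.92, 4.66, 5.54 and 5.32 on the HC arrays of CO at 24 h and at 2.69, 2.45 and 2.71 on those of CPA. The 3 CPA arrays were the lowest of all 30 HC arrays, and the CO_Co arrays (4.96, 5.66, 5.25 and 5.69) lay with CO. The difference was -2.48 (SE 0.184, adjusted p = 3.092e-10). After 6 days the order had turned, with CO at 4.79, 4.92 and 4.85 and CPA at 6.18, 5.73 and 5.56. Every CPA array was then higher than every CO array, by 0.97 (SE 0.206, adjusted p = 8.132e-04). It was the 1 collagen called in HC at 6 days, when 24.2% of all genes were called (15% higher, 9.29% lower). The CPA arrays were wholly higher for 3 collagens (23.7% of genes) and wholly lower for 4 (18.8%). Leaving out array 1 of CO or array 2 of CPA added Col1a1 at 6 days, a count of 2. With all arrays Col1a1 was dim (2.92 on CO, 2.52 on CPA, difference -0.40), and its second probe set went the other way, at 0.28. For Col4a5 the change at 6 days minus the change at 24 h was 3.45 (SE 0.277, adjusted p = 3.896e-09). Col4a6, which starts near Col4a5 on the opposite strand, did not follow it: its HC difference was -0.08 (95% interval -0.348 to 0.182) at 24 h and -0.29 (-0.584 to 0.009) at 6 days.

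Col18a1 was at 7.59, 7.30, 7.34, 7.61 and 7.85 on the CO arrays at 24 h and at 6.38, 6.23 and 6.58 on the CPA arrays. All CPA arrays were lower than all CO arrays, by 1.14 on average (difference -1.14, SE 0.185, adjusted p = 2.024e-05), and the second probe set also gave -1.14. At 6 days CO was at 6.94, 7.50 and 7.52 and CPA at 7.39, 7.01 and 7.01, which overlapped, with a difference of -0.18 (95% interval -0.608 to 0.243, adjusted p = 0.5829). The second probe set went the other way at 6 days, at 0.30. The change at 6 days minus that at 24 h was 0.96 (SE 0.278, adjusted p = 0.01988), and 1.2 (adjusted p = 0.003034) with all probe sets of a gene averaged. That difference missed the threshold without array 1 of CO at 6 days (adjusted p = 0.0818), array 2 of CPA at 24 h (0.0618) or array 1 of CPA at 6 days (0.0657). Only Col4a5 and Col18a1 of the 41 were called in the comparison of the times in HC, beside 14.5% of all genes. This comparison was chosen after the data were seen.

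The other collagens called lower in HC at 24 h had smaller differences. Col11a2 was at 4.41, 4.41, 4.28, 4.25 and 3.97 on CO and at 3.61, 3.77 and 3.72 on CPA, without overlap (difference -0.56, SE 0.139, adjusted p = 0.00214). Col15a1 was at 4.20, 3.78, 3.74, 3.92 and 3.85 on CO and at 3.55, 3.38 and 3.54 on CPA, also without overlap (difference -0.41, SE 0.147, adjusted p = 0.03222). Col14a1 was at 4.85, 3.86, 4.77, 3.76 and 3.4 on CO and at 3.68, 3.26 and 2.44 on CPA. These overlapped, the difference was -1.0 (SE 0.372, adjusted p = 0.03747), and its further probe set gave -0.14. Col13a1 (CO 2.84, 3.38, 2.84, 2.05 and 2.81, CPA 2.11, 2.26 and 2.05; difference -0.64, adjusted p = 0.04652) was dim and overlapped. Col4a1 (CO 3.97, 4.09, 4.40, 3.57 and 3.96, CPA 3.47, 3.36 and 3.59; difference -0.53, adjusted p = 0.04629) overlapped as well, and its further probe set gave 0.01. Col3a1, with CO at 5.79, 4.73, 6.11, 3.91 and 4.20 and CPA at 5.00, 3.93 and 3.42, was not called (difference -0.83, 95% interval -2.176 to 0.514, adjusted p = 0.3589).

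Across the 15 or 16 alternative settings run for each, the calls of Col4a5, Col18a1 and Col11a2 at 24 h were kept in all. Those of Col4a1, Col13a1, Col15a1 and Col14a1 were lost in 11, 11, 7 and 7. The filter at a mean of 4 left out Col11a2 (3.87 over all arrays) and Col15a1 (3.62), so neither was tested there. The count of 7 became 4 without array 1 or array 3 of CO, 4 without array 1 or array 3 of CPA, and 3 without array 2 of CPA. With each array centred on its median, Col4a5, Col18a1 and Col11a2 were the 3 called. Marker means of other cells moved with these results. From CO to CPA at 24 h in HC, the mean of the 13 stellate markers went from 3.49 ± 0.351 (range 3.05 to 3.88) to 3.11 ± 0.374 (2.77 to 3.51), with 2 of 13 called lower (Reln by 1.29 and Hgf by 0.47). That of the 12 endothelial markers went from 3.79 ± 0.413 to 3.30 ± 0.453, with 1 called lower, and that of the 15 hepatocyte markers from 11.62 ± 0.0574 to 11.33 ± 0.108, with 7 called lower and 1 higher. Their part in the collagen differences was not tested.

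**Figure D2:**
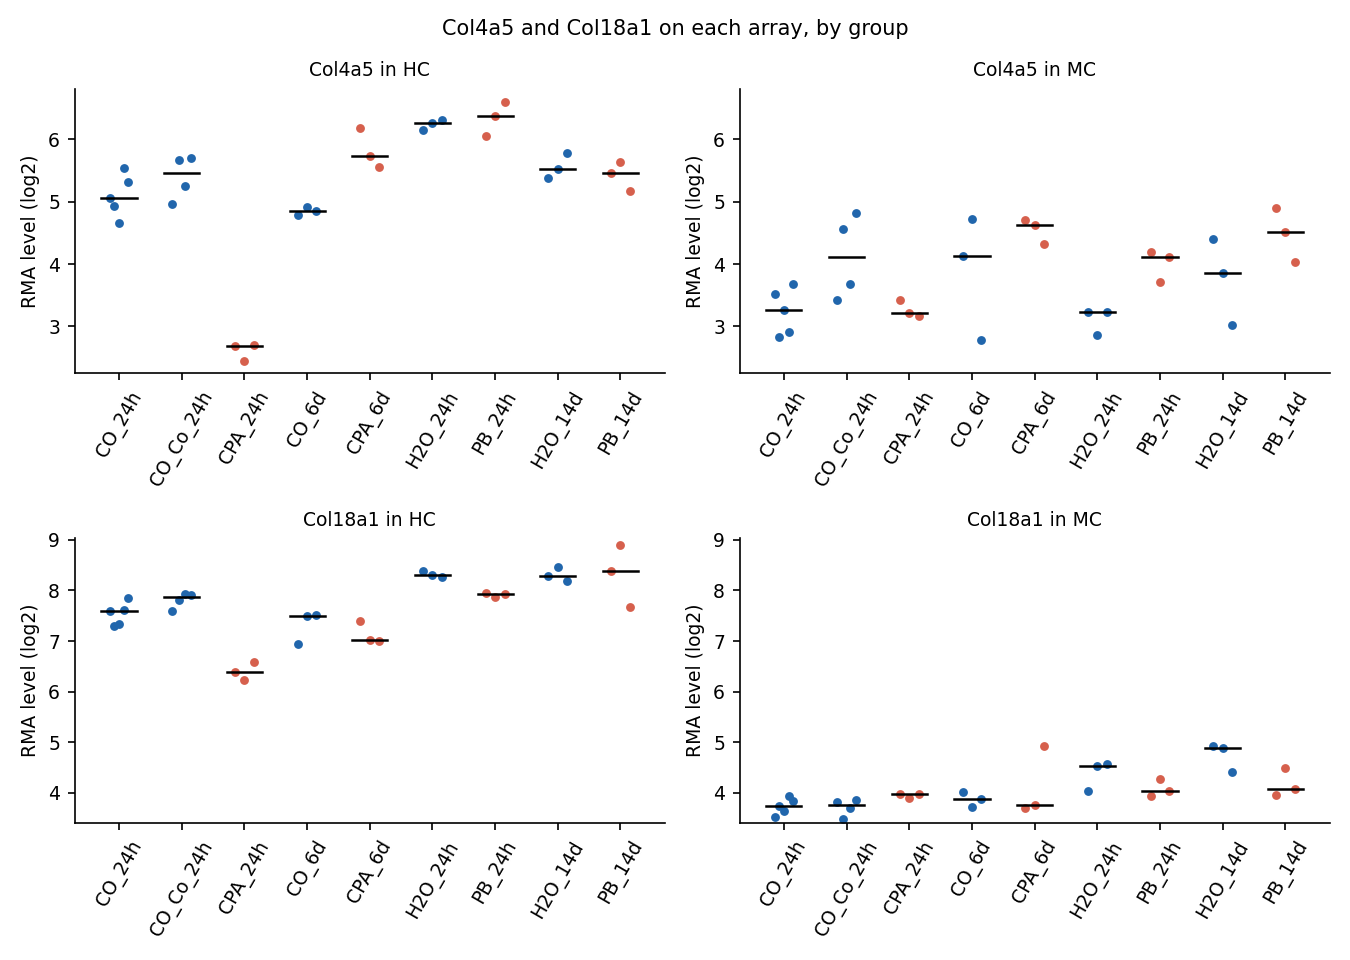
RMA level (log2) of Col4a5 (top) and Col18a1 (bottom) on each array of HC (left) and MC (right), by group, with vehicle arrays in blue, treated arrays in red and a line at each group's median. In HC the CPA arrays at 24 h are the lowest for both genes, at 2.45 to 2.71 for Col4a5 and 6.23 to 6.58 for Col18a1, and Col4a5 is higher than CO at 6 days.

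In MC at 24 h after CPA none of the 41 collagens was called, beside 2.04% of all genes (4 collagens and 12.9% of all genes at an unadjusted p under 0.05). Col4a5 was at 3.53, 2.83, 3.27, 2.91 and 3.68 on CO and at 3.43, 3.21 and 3.17 on CPA, and Col18a1 at 3.53, 3.73, 3.65, 3.94 and 3.84 on CO and at 3.97, 3.91 and 3.98 on CPA. The MC change exceeded the HC change by 2.51 for Col4a5 (SE 0.416, adjusted p = 7.189e-05) and by 1.36 for Col18a1 (SE 0.274, adjusted p = 7.98e-04). These were the 2 collagens whose CPA change at 24 h differed between the fractions, beside 7.79% of all genes. No collagen differed so for CPA at 6 days (3.5% of genes), PB at 24 h (0%) or PB at 14 days (9.2%) by limma. At an unadjusted p under 0.05 the counts were 1, 3 and 2 collagens, beside 13.5%, 3.31% and 25.8% of genes.

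Of the 11 fibrillar chains of MC none was called after 24 h of CPA, with a median of -0.16 and 0 above 0. Col3a1 was at 10.75, 9.88, 8.63, 8.03 and 8.84 on CO and at 9.28, 8.47 and 7.77 on CPA, which overlapped (difference -0.72, 95% interval -1.863 to 0.425, adjusted p = 0.6712). The fibril-associated Col14a1 was at 8.54, 7.83, 6.99, 5.96 and 6.94 on CO and at 7.19, 6.31 and 5.52 on CPA, with a difference of -0.91 (-2.192 to 0.364, adjusted p = 0.61). Of the 41 collagens, 8 lay above 0, with a median of -0.16 against -0.01 for all genes. The mean of the stellate markers was 5.38 ± 0.456 (range 4.83 to 6.04) on CO and 4.97 ± 0.311 (4.64 to 5.25) on CPA, with 1 of 13 called, the retinol esterifying enzyme gene Lrat (difference -1.64, adjusted p = 0.01319). Its part in the collagen values was not tested.

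After 6 days of CPA, Col5a2 in MC was at 8.57, 8.78 and 8.57, against 7.31, 7.56 and 6.90 on CO. Every CPA array was higher than every CO array and also than every other MC array of the series. The first pair of these CPA arrays was the near-identical pair and counted once. The difference was 1.37 (SE 0.516, 95% interval 0.297 to 2.437), which did not pass the adjusted threshold (adjusted p = 0.337), and the further probe set gave 1.11. Col4a1 (CO 7.16, 7.52 and 6.99, CPA 8.19, 8.16 and 7.82; difference 0.77, adjusted p = 0.8664) and Col4a2 (CO 5.61, 5.22 and 5.56, CPA 6.28, 6.35 and 6.38; difference 0.89, adjusted p = 0.7323) also had no overlap. None of the 41 was called at 6 days in MC, beside 1.7% of all genes, and 1 collagen and 8.19% of genes had an unadjusted p under 0.05. The CPA arrays were wholly higher for 5 collagens (13.3% of genes) and wholly lower for 3 (8.94%). The endothelial marker mean was 9.41 ± 0.287 on CO and 9.08 ± 0.373 on CPA, and the stellate mean 4.97 ± 0.566 and 4.38 ± 0.144. Their part in the collagen values was not tested. Without the averaged pair, 1 collagen was called, Col18a1, which then rested on the remaining array, at 4.92.

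**Figure D3:**
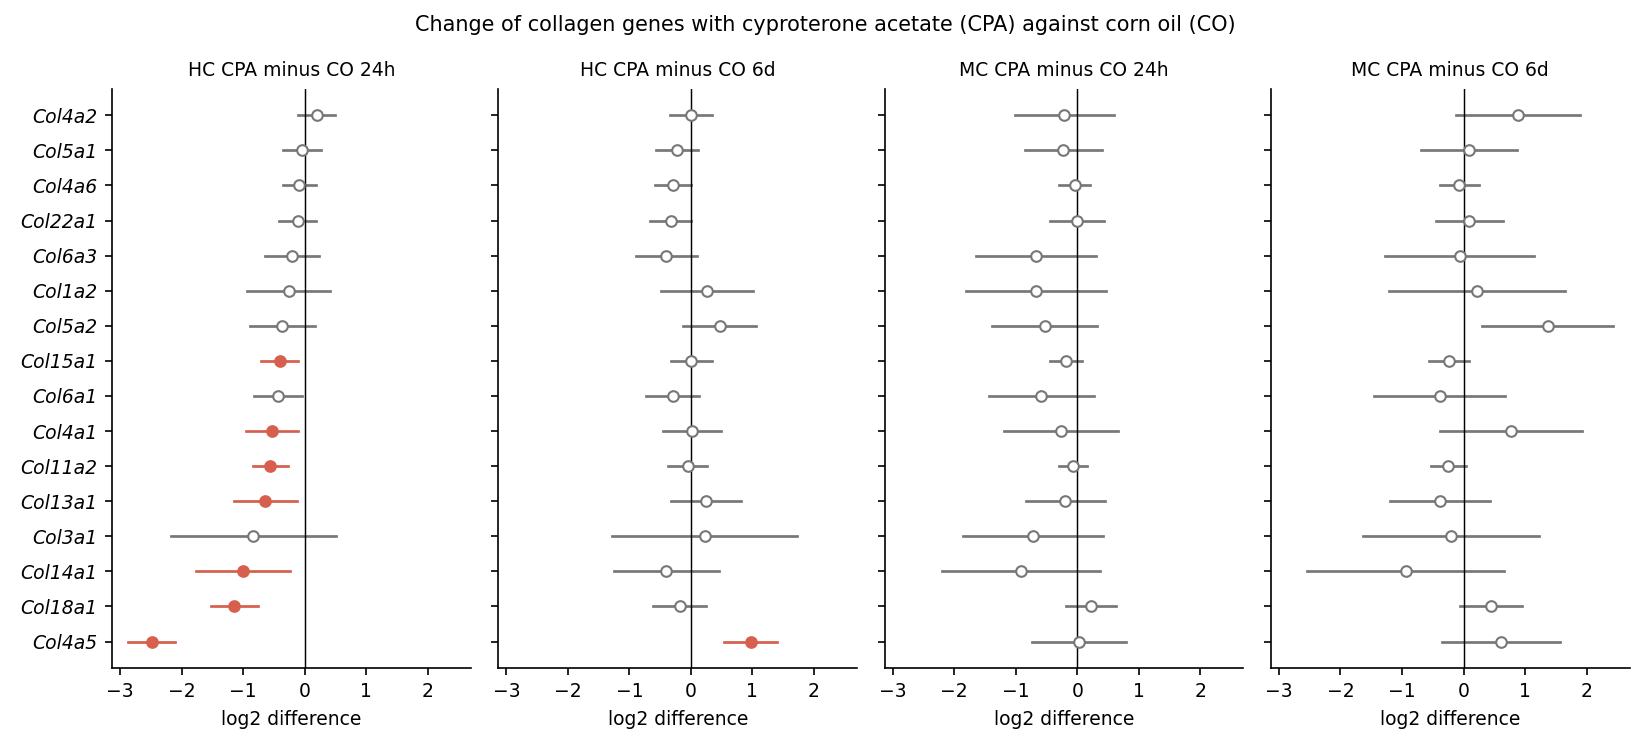
Difference CPA minus CO (log2, with its 95% interval) of the 16 named collagens in HC and MC at 24 h and 6 days, ordered by the HC value at 24 h, with called differences filled in red. In HC 7 are called lower at 24 h and Col4a5 is called higher at 6 days, and no MC difference is called.

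**Figure D4:**
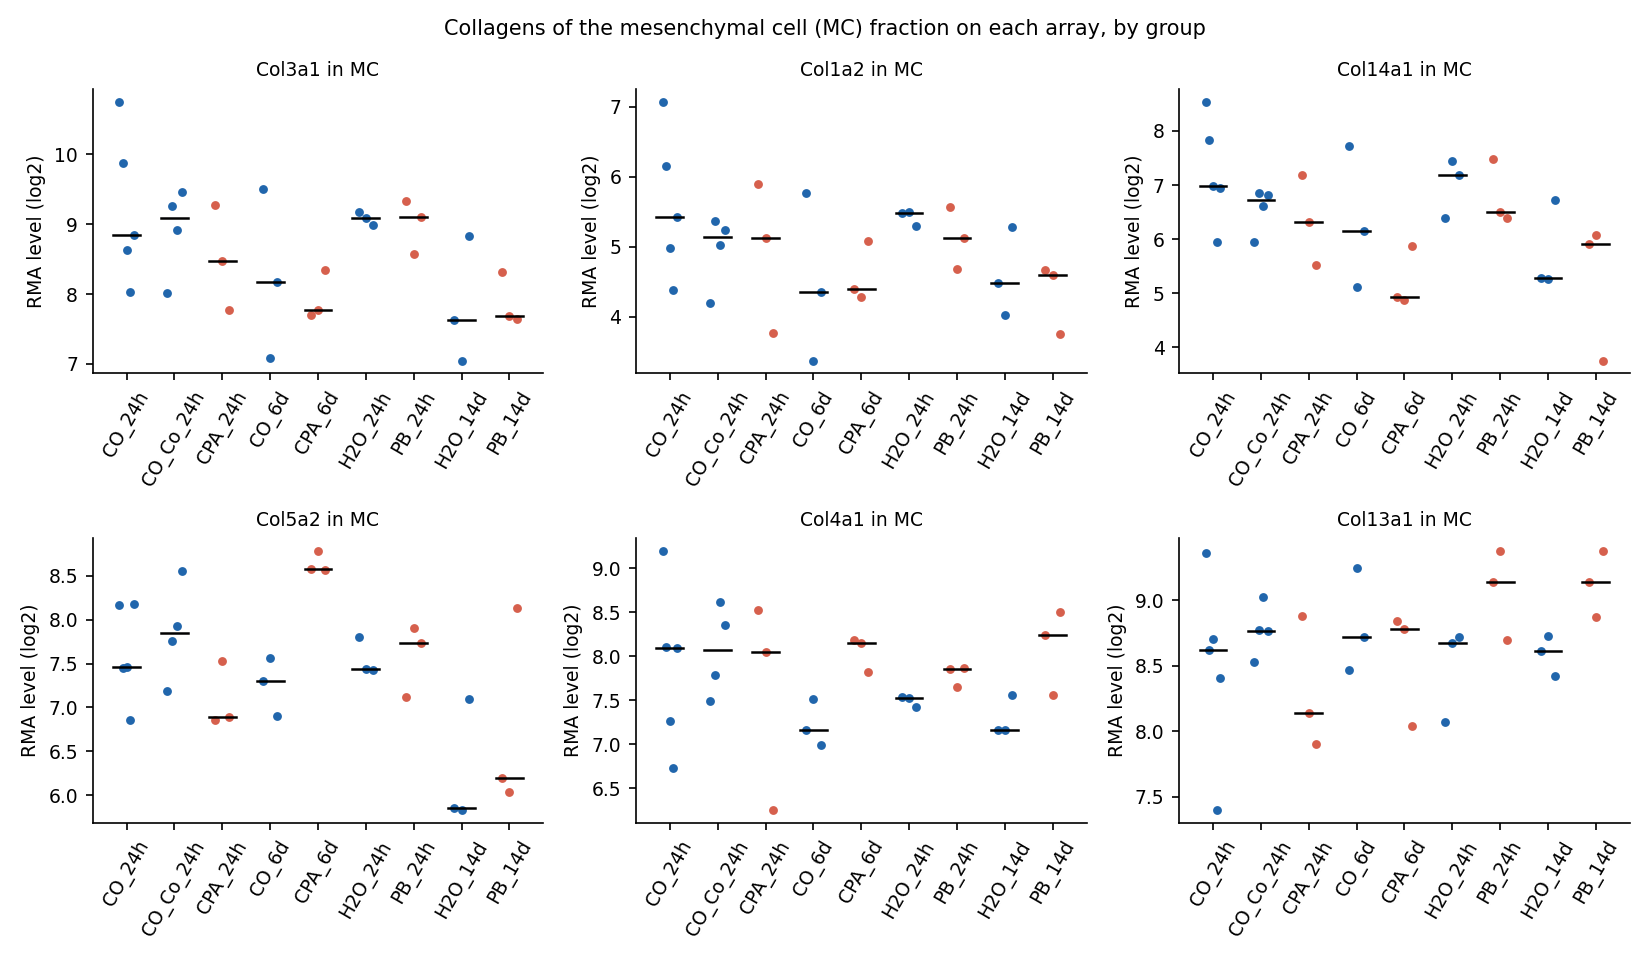
RMA level (log2) on each MC array of 6 collagens, by group, with vehicle arrays in blue, treated arrays in red and a line at each group's median (the vertical scales differ). Col5a2 at 6 days of CPA (8.57 to 8.78) lies higher than every other MC array, and Col3a1, Col1a2 and Col14a1 spread widely within groups.

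After phenobarbital 1 collagen passed the threshold, in MC at 14 days. In HC, 0 of 41 were called at 24 h (0.0774% of all genes) and 0 at 14 days (0.0633%), by limma. At an unadjusted p under 0.05 there were 2 collagens at 24 h (6.94% of genes) and 1 at 14 days (11.1%). Col18a1 was at 8.30, 8.27 and 8.39 on water and at 7.95, 7.86 and 7.93 on PB at 24 h, without overlap but short of the threshold (difference -0.40, 95% interval -0.83 to 0.021, adjusted p = 0.7568). Col4a5 was at 6.26, 6.31 and 6.15 on water and at 6.05, 6.37 and 6.60 on PB, a difference of 0.10 (-0.322 to 0.526). At 14 days Col6a3 was at 3.58, 3.03 and 3.81 on water and at 3.03, 2.33 and 2.54 on PB (difference -0.84, adjusted p = 0.1794). In MC at 24 h, 0 of 41 and 0% of all genes were called, and at an unadjusted p under 0.05 there were 0 collagens and 1.59% of genes.

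At 14 days in MC 1 of 41 collagens was called, beside 15.1% of all genes (7.49% higher, 7.65% lower). It was Col4a6, at 3.12, 2.92 and 2.90 on water and at 2.32, 2.57 and 2.68 on PB, dim and without overlap (difference -0.46, SE 0.138, adjusted p = 0.0333), and its even dimmer second probe set gave 0.01. At an unadjusted p under 0.05 there were 5 collagens, beside 33.8% of genes. The PB arrays were wholly lower than the water arrays for 6 collagens (17% of genes) and wholly higher for 1 (18.8%). Replicate numbers were taken to pair PB and water arrays here, from correlations in these data and not from a label. With the replicate number as a block, 5 of 41 collagens and 4783 of 14217 genes were called. The share called was thus smaller among the collagens than among all genes. Col4a1 (0.80, SE 0.173, adjusted p = 0.006002), Col4a5 (0.72, adjusted p = 0.04651) and Col13a1 (0.54, adjusted p = 0.04674) were higher. Col6a3 (-1.29, adjusted p = 0.01847) and Col4a6 (-0.46, adjusted p = 0.02771) were lower. Without the block the adjusted p of the first 3 was 0.2543, 0.2194 and 0.2738, and that of Col6a3 was 0.09139.

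Array by array, Col4a1 was at 7.17, 7.17 and 7.57 on water and at 8.24, 7.56 and 8.50 on PB, where the lowest PB array lay just below the highest water array. Col6a3 was at 4.82, 4.42 and 4.76 on water and at 3.93, 3.29 and 2.92 on PB, and Col13a1 at 8.62, 8.72 and 8.42 on water and at 9.14, 8.87 and 9.37 on PB, neither with overlap. The groups also differed in the RNA of other cells. The mean of the 15 hepatocyte markers was 10.09 ± 0.125 (range 9.95 to 10.19) on water and 8.27 ± 0.741 (7.62 to 9.08) on PB, with 3 called lower. That of the 12 endothelial markers was 9.09 ± 0.0219 (9.07 to 9.11) and 9.71 ± 0.068 (9.63 to 9.77), with 1 called higher, and that of the stellate markers 5.01 ± 0.20 and 4.72 ± 0.495, with 0 called. That of the 11 Kupffer markers went from 9.93 to 10.68, with 3 called higher (Cd68, Csf1r and Cybb), and that of 5 erythroid markers from 6.85 to 5.52, with 2 called lower (Alas2 by 2.15 and Ahsp by 1.16). Their part in the collagen values was not tested. With the hepatocyte mean as a covariate no collagen was called. Without array 1 of water, or array 1 or 2 of PB, the count was 0, and without array 3 of either group it was 2. Without the third arrays of both groups it was 1, Col4a6 again, and in HC it was 0. The call of Col4a6 was kept in 8 of its 15 alternatives.

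The levels of MC collagens within groups were set against 2 marker lists only, stellate and sinusoidal endothelial, and not all followed the same list. Relations with the other marker lists were not computed in MC. Over 28 MC samples, each set against the mean of its own group, Col14a1 went with the mean of the stellate markers (r = 0.957, rho = 0.926), as did Col6a3 (r = 0.909, rho = 0.903), Col1a2 (r = 0.899, rho = 0.882), Col6a1 (r = 0.892, rho = 0.917) and Col3a1 (r = 0.824, rho = 0.778). Against the endothelial mean these 5 had r between 0.401 and 0.552. Col4a1 (r = 0.906, rho = 0.843) and Col13a1 (r = 0.850, rho = 0.699) went with the endothelial mean instead, and their r against the stellate mean was 0.412 and 0.296. Col4a2 had r = 0.707 (rho = 0.463) with the endothelial and 0.509 (rho = 0.476) with the stellate mean. Col5a2 went with neither (r = -0.101 and 0.345).

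For the 5 stellate relations the permutation p within groups was 2e-05 or 1e-05, the latter the smallest that 100000 resamples can give, and the adjusted p over the 28 relations computed was 7e-05 or 4.67e-05. Col4a1 with the endothelial mean had an adjusted p of 7e-05 and Col13a1 of 3.64e-04, by the same permutation test. For Col4a2 with the endothelial mean it was 0.0209 for r and 0.0892 for rho. Without the 2 samples farthest from the median of the marker mean, r stayed between 0.743 and 0.945 for the 5 stellate relations, and was 0.839 for Col4a1 and 0.793 for Col13a1. Col3a1 and Col1a2 went together (r = 0.961, rho = 0.961, 0.942 without the 2 farthest), as did Col4a1 and Col4a2 (r = 0.825, rho = 0.646, 0.716 without them). In HC, over 30 arrays, Col3a1 (r = 0.890, rho = 0.862) and Col14a1 (r = 0.858, rho = 0.836) went with the stellate mean, while Col18a1 went against it (r = -0.631, rho = -0.548, permutation adjusted p = 0.0281). Col4a5 went with the hepatocyte mean (r = 0.481, rho = 0.532, permutation adjusted p = 0.0216). For Col18a1 no such relation was found (r = 0.158, rho = 0.373, permutation adjusted p = 0.464). The genes of a sample share 1 array and its RNA mix, and these relations were chosen after the data were seen.

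**Figure D5:**
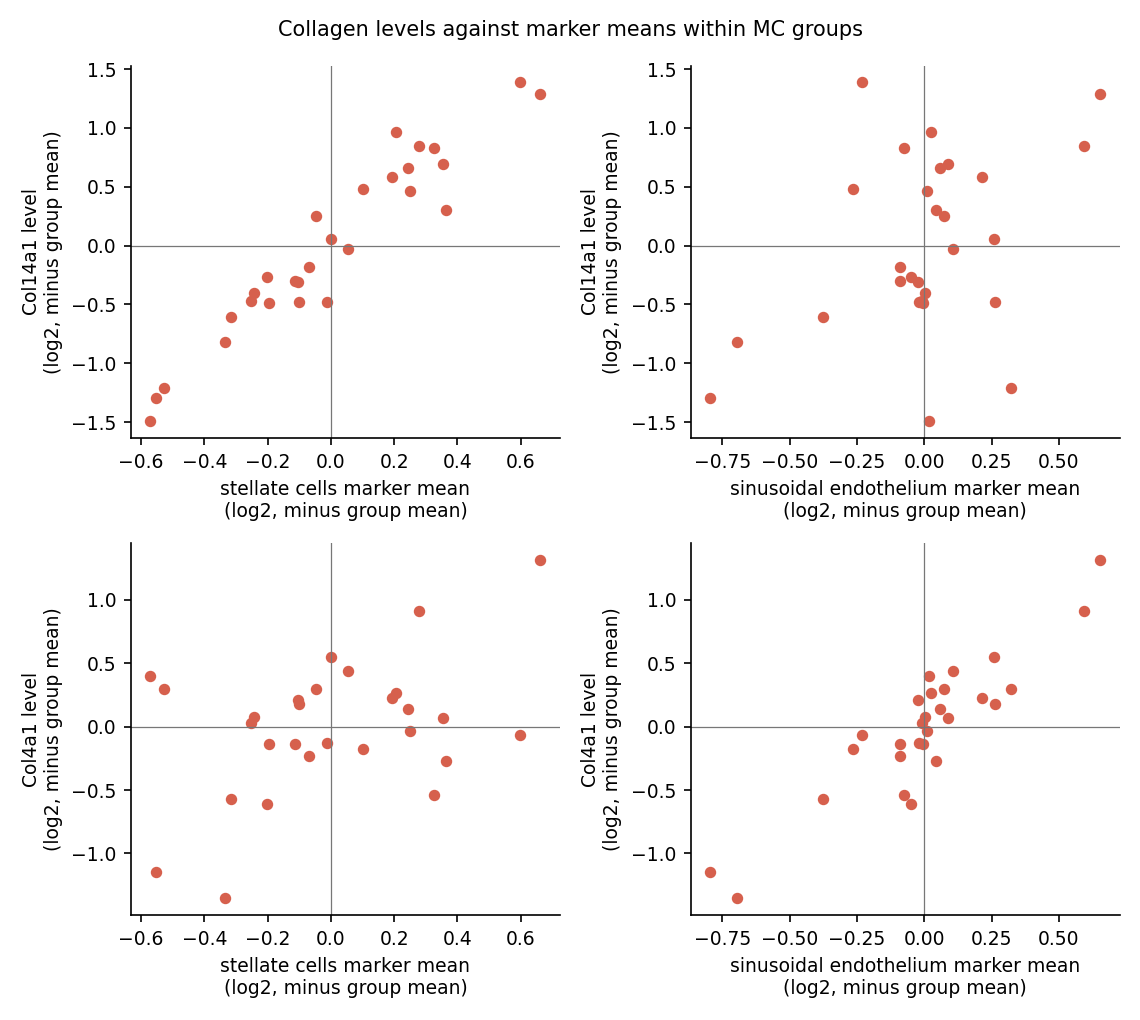
Level of Col14a1 (top) and Col4a1 (bottom) on each of 28 MC samples against the mean of the stellate markers (left) and of the sinusoidal endothelial markers (right), each in log2 minus the mean of its group. Col14a1 follows the stellate mean (r = 0.957) more closely than the endothelial mean (r = 0.401), and Col4a1 the endothelial mean (r = 0.906) more closely than the stellate mean (r = 0.412).

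Genes that process, bind or degrade collagen were counted from lists. Of 18 genes of collagen modification and folding, 3 rose and 4 fell in HC after 24 h of CPA, where 34.2% of all genes were called (22.5% higher, 11.7% lower), so their share was close to that of all genes. Serpinh1, the collagen chaperone HSP47, rose by 1.84 (SE 0.671, adjusted p = 0.03429), P4ha2, a prolyl hydroxylase subunit, by 0.83 (adjusted p = 5.027e-04) and Plod1, a lysyl hydroxylase, by 0.50 (adjusted p = 2.575e-04), whereas P3h3, a partner of collagen lysyl hydroxylation, fell by 0.75 (adjusted p = 0.004126). Of 6 genes of propeptide cleavage and cross-linking 3 fell and 0 rose, among them Bmp1, which cleaves the C-terminal propeptide, by 1.12 (SE 0.197, adjusted p = 5.336e-05), and Pcolce, its enhancer, by 0.57 (adjusted p = 0.01487). Of 9 fibril-binding proteins 2 fell, Fn1 (fibronectin) by 1.13 (SE 0.119, adjusted p = 4.727e-08) and Thbs2 by 0.44 (adjusted p = 0.007893). Of 5 receptors 2 fell, with the integrin chain Itga1 at -1.11 (adjusted p = 0.001337), of 12 breakdown genes none was called, and of 14 basement membrane partners 1 fell, Lama2, at -0.85 (adjusted p = 0.002995). Of 14 genes of TGF-beta and PDGF signals 2 rose and 1 fell. Pdgfa, a ligand of stellate cells, rose by 1.67 (SE 0.222, adjusted p = 1.344e-06), and the TGF-beta target Tgfbi fell by 0.91 (adjusted p = 1.766e-06).

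At 6 days in HC, where 24.2% of all genes were called (15% higher, 9.29% lower), 5 of the 18 modification genes rose and 1 fell, with Serpinh1 at 2.04 (SE 0.751, adjusted p = 0.04793). The basement membrane partners had 4 rises and 1 fall of 14. Lama5, a laminin alpha chain, rose by 1.95 (SE 0.263, adjusted p = 3.294e-06), Lama3 by 1.37 (adjusted p = 0.04815) and Lamb1 by 1.11 (adjusted p = 0.001416), whereas Hspg2 (perlecan) fell by 0.69 (adjusted p = 0.02467). Of the receptors 2 of 5 rose, the collagen receptor kinase Ddr1 by 1.22 (adjusted p = 6.408e-05) and Itgb1 by 0.76 (adjusted p = 7.612e-04). Lamc1 also rose, by 0.57 (adjusted p = 0.04143), and the other laminin chains of the list were not called. In this comparison the mean of 11 Kupffer cell markers went from 5.13 ± 0.178 to 6.41 ± 0.164 (2 of 11 called higher and 1 lower) and that of 7 cholangiocyte markers from 2.97 ± 0.028 to 3.59 ± 0.139 (2 called higher, with Epcam at 1.83). The part of other cells in these values was not tested.

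In MC the lists held fewer calls. Mmp12, the macrophage elastase gene, rose after 6 days of CPA from 3.80 to 7.80 (difference 4.0, SE 0.522, adjusted p = 3.258e-05), as it did in HC from 2.65 to 3.85 (1.2, adjusted p = 1.84e-04), and P4hb was the 1 modification gene called in MC (0.62), beside 1.7% of all genes. After 14 days of PB in MC, where 15.1% of all genes were called (7.49% higher, 7.65% lower), 3 of 18 modification genes rose, 2 of 5 receptors rose (Itga1 by 1.19, Itgb1 by 0.82), and of the basement membrane partners Nid1 (nidogen) rose by 0.80 (adjusted p = 0.04293) and Lama3 fell by 2.12 (adjusted p = 0.005757) along with Lamb3. Of the TGF-beta and PDGF signals 3 of 14 rose, the receptor gene Tgfbr1 by 1.08, Smad7 by 0.78 and Tgfb1 by 0.61. Marker means of hepatocytes, endothelium and Kupffer cells also differed in this comparison, as given above, and their part in these values was not tested. No gene of these 7 lists was called in MC after 24 h of CPA, in MC after 24 h of PB, or in HC after PB at either time. At an unadjusted p under 0.05 each of these 4 comparisons except MC PB at 24 h had some. Between vehicle fractions, Serpinh1 (3.43), the cross-linking enzyme Loxl2 (5.03) and the collagen-binding glycoprotein Sparc (5.43) were higher in MC, and Fn1 (-4.25) and Bmp1 (-1.90) lower.

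The corn oil groups at 24 h, CO_Co and CO, differed in 0 of 41 collagens in HC (0.0703% of all genes, and 0 collagens and 3.85% of genes at an unadjusted p under 0.05) and 0 in MC (0% of genes, and 3 collagens and 2.29% of genes at an unadjusted p under 0.05), by limma. In HC their differences ran from -0.33 to 0.29, and Col4a5 (0.29) and Col18a1 (0.27) lay at or near the upper end. In MC they ran from -0.69 to 0.88, with Col4a5 at the upper end (95% interval 0.175 to 1.582, adjusted p = 0.996).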

How the data were processed

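Livers of Wistar rats gave hepatocyte and mesenchymal cell arrays, 60 in all. The authors deposited log2 values made with RMA, per the submitters' processing notes, and the version is not given in the sources used here. RMA includes quantile normalisation, which gives arrays the same overall distribution, so a shift shared by most genes would not be seen, and probe sets differ in binding, so levels are not compared between genes. Of 31042 probe sets, 20826 have 1 symbol, 436 several and 9780 none. The probe set with the highest mean stood for each of 14217 genes, and symbols were matched by gene identifier for all 41 collagens. Precision is limited by the number of arrays.

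Members and gene lists were chosen with earlier results of these data known. A model with a mean for every group was fitted to each fraction, and fractions were compared in 1 fit of all arrays (limma 3.58.1, R 4.3.3, empirical Bayes, Benjamini-Hochberg). The fit was tested on simulated data. No term for sex was used. Pairs of arrays of a group with an SD of the difference under 0.15, over probe sets with a mean above 6, were averaged. This bound was chosen after the data were seen, and fits with the replicate block kept all arrays apart. Members were named when called in a treatment comparison or when among the 12 highest vehicle means of MC or the 6 highest of HC, and other lists by up to 4 called genes of largest change per comparison. Time differences and correlations were added after the data were seen. Correlations used 100000 permutations within groups (Python 3.11.15, scipy 1.17.1).

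Replicate numbers are shared between groups. For PB and water at 14 days the deviations of same-numbered arrays correlated at 0.300, 0.200 and 0.459 in HC and at 0.255, 0.332 and 0.644 in MC, so these numbers were taken to pair the arrays, from the data and not from a label. Same-numbered HC and MC arrays also met the rule in both 14-day groups (0.183 to 0.456), which concerns the difference between fractions for PB at 14 days, where the block called 0 collagens as well. Those of CO at 24 h (0.137 to 0.288) and of PB at 24 h (0.131 to 0.340) did so too, but not those of CPA or H2O at 24 h. In every other comparison at least 1 pair was under 0.1. The comparisons of fractions were fitted without pairing. Promoter windows are from RefSeq, build GRCr8, cut where they met the gene record, and were matched by symbol. Alternatives were a sex term, array weights, all probe sets averaged, a filter at a mean of 4, centring, only the groups compared, the replicate block, a hepatocyte covariate, added CO_Co controls and each array left out.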

Additional observations from a re-analysis of the deposited data

Results flagged for a closer look

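The CPA change at 24 h differed between the fractions for 2 collagens. The MC change minus the HC change was 2.51 for Col4a5 and 1.36 for Col18a1, and both calls were kept in all 15 alternatives, with values from 2.32 to 2.63 and from 1.29 to 1.44. The HC change also differed between the times, the change at 6 days minus that at 24 h being 3.45 for Col4a5 (3.28 to 3.58 over 19 alternatives, all kept) and 0.96 for Col18a1 (0.77 to 1.2, with 16 of 19 kept). Dixon's test was run 48 times, each on 1 named collagen in 1 group of 4 or 5 arrays, in the fraction it was named for. Only CO and CO_Co at 24 h are that large. No array stood apart, whereas chance alone would flag an array in 1 check of 20. The groups of 3 arrays, all treated groups among them, were not checked.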

How the results depend on the processing

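No collagen called for a treatment, or for a difference in change between times or fractions, turned direction under any alternative run. The directions of the collagens called between vehicle fractions were not followed gene by gene across the alternatives. The main counts called were HC PB 0 at 24 h and 0 at 14 days, HC CPA 7 and 1, MC PB 0 and 1, MC CPA 0 and 0, and vehicle fractions 32. Array weights gave 1 in HC PB at 24 h, 4 in HC CPA at 6 days, 3 in MC PB at 14 days and 2 in MC CPA at 24 h. Centring gave 3 in HC CPA at 24 h. Fitting only the groups compared gave 2 in HC CPA at 6 days. In MC PB at 14 days the mean of all probe sets, the filter at a mean of 4 and the hepatocyte covariate each gave 0. In the vehicle comparison the sex term (resting on doubtful PB and H2O labels at 24 h) gave 17 and the filter 10. Over corn oil groups alone they gave 14 and 10 against 33, and over water groups alone the filter gave 9 against 22.

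The replicate block gave 5 in MC PB at 14 days, the comparison taken as paired. Where the numbers were not taken to pair the arrays, the block gave 7 in HC CPA at 24 h (6 of them shared). It gave 3 in HC CPA at 6 days, and in MC CPA 2 at 24 h and 2 at 6 days (Col4a1 and Col5a2). These last 2 calls counted the near-identical CPA arrays 1 and 2 as separate samples. The block moved no other collagen count by more than 1. Leaving out 1 array at a time gave 0 to 1 in HC PB at 14 days, 3 to 6 in HC CPA at 24 h, 1 to 2 in HC CPA at 6 days, 0 to 2 in MC PB at 14 days, 0 to 1 in MC CPA at 24 h and at 6 days, and 30 to 34 in the vehicle comparison. It gave 0 to 1 in the differences between fractions for PB at 14 days and CPA at 6 days, and 1 to 3 in the HC time difference of CPA. The causes were not tested. A lone array left in a group was assumed to vary like the other groups. Signal limits the rest: 27 members lie under 4 in both fractions.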

Other observations

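Col5a2 at 6 days of CPA in MC (8.57, 8.78 and 8.57) lay higher than all 27 other MC arrays, of which the highest was at 8.56, without passing the adjusted threshold. The arrays of CO_Co in MC were at 3.68, 4.82, 3.42 and 4.56 for Col4a5, against 2.83 to 3.68 on the CO arrays.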
